A study of Homo sapiens with 4 samples.

Results

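The 10 genes described here encode the enzymes that add and remove the phosphate on translation factor eIF2alpha and the sensors of the unfolded protein response in the endoplasmic reticulum (ER). They are the kinases EIF2AK1, EIF2AK2, EIF2AK3 and EIF2AK4, the phosphatase adaptors PPP1R15A and PPP1R15B, the sensors ERN1, ATF6 and ATF6B, and the transcription factor XBP1. They were chosen by gene symbol, and every probe set that the platform annotation ties to 1 of these genes alone was taken, which gave 24 probe sets of 41091 single-gene probe sets on the array. HEK293 cells, an established human embryonic kidney line, were grown for 7 days in DMEM with fetal calf serum at 450 mg/dl glucose (high glucose) or at 100 mg/dl (low glucose). Total RNA was measured on 2 biotin-labelled, single-colour Affymetrix arrays per group, called biological replicates by the labels. No label says how the cultures were kept apart, so p-values measure only the spread between these samples.

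Phosphorylated eIF2alpha slows most translation and lets the ATF4 mRNA be translated, a circuit called the integrated stress response. Each kinase answers to a different stress: EIF2AK1 (HRI) to lack of haem and to mitochondrial stress, EIF2AK2 (PKR) to double-stranded RNA, EIF2AK3 (PERK) to unfolded protein in the ER, and EIF2AK4 (GCN2) to uncharged tRNA. PPP1R15A (GADD34) and PPP1R15B (CReP) bring protein phosphatase 1 to eIF2alpha, with PPP1R15A induced by stress and PPP1R15B made all the time. In the ER, ERN1 (IRE1alpha) cuts XBP1 mRNA so that it is spliced to the active form, while ATF6 and its homologue ATF6B are cut in the Golgi and move to the nucleus. Arrays measure transcript levels, so kinase activity, eIF2alpha phosphorylation and XBP1 splicing were not measured.

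Promoter sequences are given for the transcripts that moved most and for the kinase that moved the other way. The windows are those of RefSeq on GRCh38.p14, from 250 bases before to 50 bases after an annotated start, and are printed up to 10 bases after it. They were found for 9 of the 10 genes (not for EIF2AK1), in 10 windows, since XBP1 has 2 starts. Capitals mark matches to any of the 7 motifs described after the sequences. XBP1 is the more upstream start, at chr22:28800560-28800819, minus strand. PPP1R15A is at chr19:48872171-48872430, plus strand. EIF2AK3 is at chr2:88627455-88627714, minus strand. EIF2AK4 is at chr15:39933865-39934124, plus strand.
XBP1: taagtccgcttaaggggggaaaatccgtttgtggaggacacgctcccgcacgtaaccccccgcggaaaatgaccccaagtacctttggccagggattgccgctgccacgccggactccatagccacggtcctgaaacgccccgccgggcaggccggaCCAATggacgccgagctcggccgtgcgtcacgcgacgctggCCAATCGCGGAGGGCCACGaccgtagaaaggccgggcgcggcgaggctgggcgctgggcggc
PPP1R15A: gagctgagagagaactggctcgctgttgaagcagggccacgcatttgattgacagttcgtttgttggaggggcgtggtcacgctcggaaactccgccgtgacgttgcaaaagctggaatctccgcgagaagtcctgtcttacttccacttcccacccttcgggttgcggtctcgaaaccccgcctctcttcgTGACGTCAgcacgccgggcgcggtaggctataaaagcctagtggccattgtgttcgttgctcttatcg
EIF2AK3: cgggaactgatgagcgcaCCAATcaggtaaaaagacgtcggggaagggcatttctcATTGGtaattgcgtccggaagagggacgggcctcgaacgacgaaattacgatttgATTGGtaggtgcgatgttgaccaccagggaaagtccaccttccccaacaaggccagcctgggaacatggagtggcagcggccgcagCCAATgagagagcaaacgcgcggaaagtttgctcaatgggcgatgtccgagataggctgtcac
EIF2AK4: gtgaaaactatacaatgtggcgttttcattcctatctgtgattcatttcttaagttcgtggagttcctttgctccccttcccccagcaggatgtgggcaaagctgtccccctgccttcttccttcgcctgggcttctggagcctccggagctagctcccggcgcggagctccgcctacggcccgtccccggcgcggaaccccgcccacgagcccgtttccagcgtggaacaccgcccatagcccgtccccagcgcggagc

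The windows were searched on both strands for motifs of the factors in this circuit. The ER stress response element (ERSE), bound by ATF6 together with NF-Y, was taken as CCAAT and CCACG with 9 bases between them. It was found in the upstream XBP1 window, at positions -52 to -34 from the start, and in 0.0769% of all 35116 windows. The cyclic AMP response element TGACGTCA lay in the PPP1R15A window at -58 to -51 and in 1.85% of all windows. The amino acid response motif TGATGNAA lay in the PPP1R15B window at -227 to -220 and in 3.62% of all windows. The interferon-stimulated motif, taken as GAAA, 2 bases and GAAA, lay across the start of EIF2AK2 and in 3.57% of all windows. The CCAAT box, which is also the first part of ERSE, was in 34.6% of windows, with 4 copies upstream of EIF2AK3. The XBP1 element TGACGTGG (0.729% of windows) and ERSE-II (ATTGG, 1 base and CCACG, in 0.0541%) were in none of the 10 windows. The windows of EIF2AK4 and ATF6 held no match to any of the 7 motifs. A match describes these letters only and is not a binding site.

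**Figure D1:**
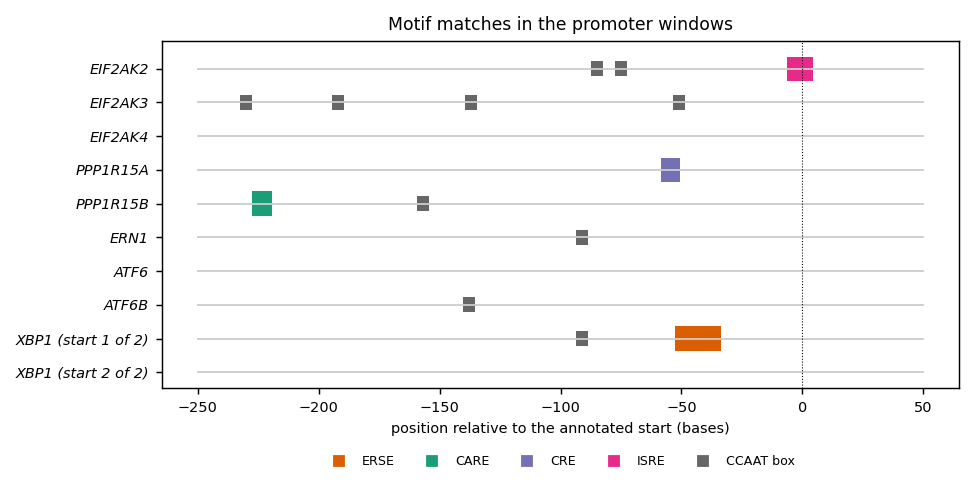
Position of motif matches in the 10 promoter windows, in bases from the annotated start (x axis), one line per window. ERSE is in the upstream XBP1 window only, the cyclic AMP response element (CRE) only in PPP1R15A, the amino acid response motif (CARE) only in PPP1R15B and the interferon-stimulated motif (ISRE) only in EIF2AK2; the CCAAT box recurs in 6 windows.

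Signals are the intensities that the authors deposited, on a linear scale and already set to a common trimmed mean of 200.02 on each array. Signals of different probe sets cannot be ranked against each other, and words such as brightest only tell the probe sets of a gene apart. Of the 24 probe sets, 21 reached the filter (mean log2 signal over the 4 arrays at or above that of 32.9 signal units) and were tested with limma over all 27307 probe sets that reached it. Fold changes are high over low glucose on the log2 signal scale, with the standard error (SE) of the fit, and a probe set was called at a Benjamini-Hochberg adjusted p under 0.05. Of the 21 tested, 16 were called, 13 lower and 3 higher in high glucose, and 5 did not pass. Of those called, 1 of ERN1 and 1 of EIF2AK4 reached the filter only through the group where they were high. Over all tested probe sets, 50.4% were called, 27.2% lower and 23.1% higher. Falls of 2-fold or more with a call numbered 9 of the 21, beside 7.13% of all tested probe sets. The arrays of the 2 groups did not overlap for 18 of the 21, against 76.8% of all. The median log2 fold change was -0.71 over the 21 and -0.06 over all tested. Higher calls made up 45.9% of all calls, and 63.0% after median centring, which set the median of all tested probe sets at 0.11.

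Measurements of the whole array stand beside these values. Bacterial transcripts spiked into the RNA ahead of labelling (poly-A spikes) were higher in high glucose on 24 of 24 probe sets, by a median of 3.84-fold, and ribosomal RNA probe sets by a median of 3.31-fold. The 18 hybridisation controls, added after labelling, had a median difference of -0.34 log2 units. Their median signals were 485 and 874 in high glucose, against 867 and 886 in low glucose, so that only high glucose replicate 1 stood apart. Whether the difference in the spikes and ribosomal RNA has a part in the falls or the rises below was not tested. Of 9 HEK293 markers with a probe set, 8 reached the filter and NEFM did not, while 0 of 4 leukocyte and 0 of 4 hepatocyte markers did. The filter was also reached by 1 of 4 fibroblast markers (COL1A1), 1 of 3 endothelial markers (PECAM1) and 2 of 4 markers of kidney tubule (AQP1 and AQP2). In bulk RNA, fewer cells with a transcript and less of it per cell cannot be told apart.

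**Figure D2:**
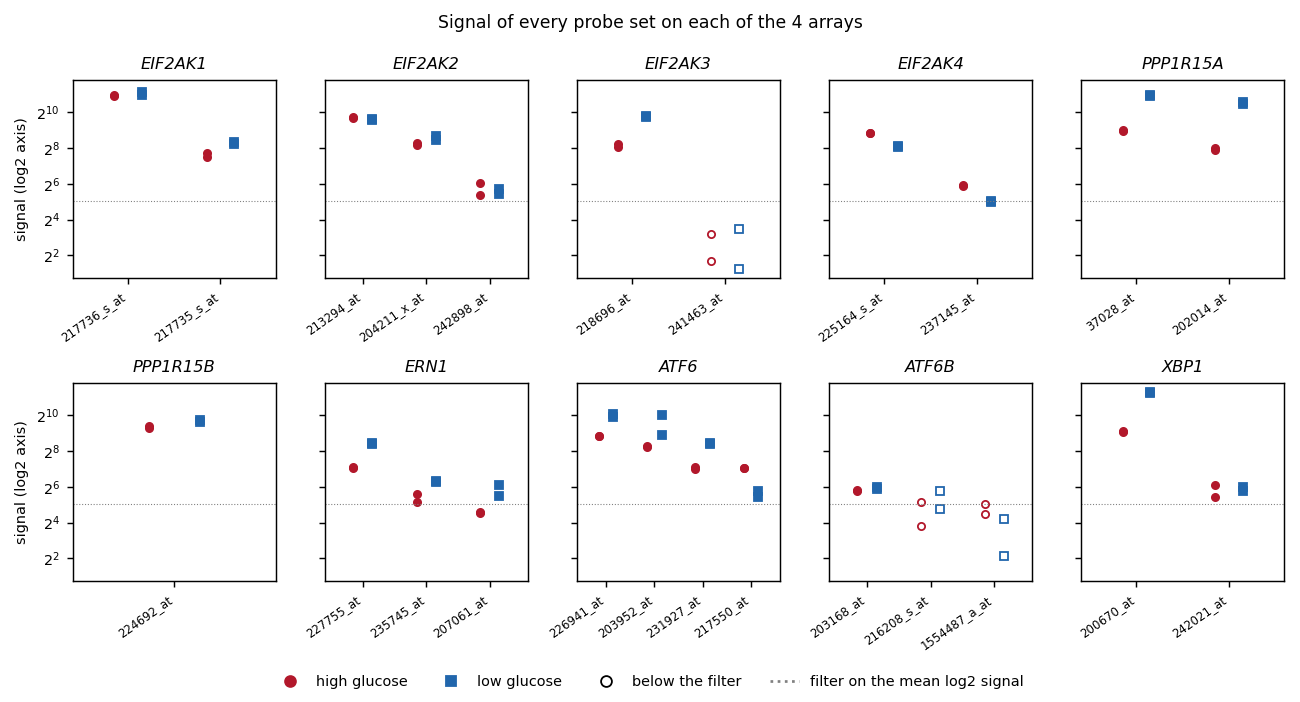
Signal (log2 axis) of each of the 24 probe sets on the 4 arrays, high glucose as circles and low glucose as squares, 1 panel per gene with its probe sets named on the x axis, brightest first; open symbols mark the 3 probe sets below the filter (dotted line). High glucose arrays lie below low glucose arrays for PPP1R15A, PPP1R15B, ERN1, 3 of the 4 ATF6 probe sets and the brighter probe sets of EIF2AK3 and XBP1. They also lie below for the dimmer EIF2AK1, the second EIF2AK2 and the brightest ATF6B probe set. They lie above for EIF2AK4, the dimmest ATF6, the brightest EIF2AK2 and the dimmest ATF6B probe set (below the filter).

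Among the 4 eIF2alpha kinases, EIF2AK3 was lower and EIF2AK4 higher in high glucose, while EIF2AK1 and EIF2AK2 differed between their probe sets. EIF2AK3, the ER-resident kinase, had 297 and 262 signal units in its brighter probe set in high glucose, against 843 and 891 in low glucose. The groups did not overlap. EIF2AK3 fell 3.11-fold (log2 fold change -1.64 ± 0.09 SE, adjusted p = 1.6e-05), and 1.76% of all tested probe sets had a log2 fold change as low. Its dimmer probe set was below the filter, with signals of 3.19 and 9.14 in high glucose, against 2.32 and 11.1 in low glucose, and carries no call.

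EIF2AK4, the amino acid sensor, rose in its brighter probe set. That probe set is of the _s_at type, which the alternative without _x_at and _s_at probe sets left out. It had 454 and 466 signal units in high glucose, against 263 and 272 in low glucose. That is 1.72-fold higher (0.78 ± 0.08 log2 units, adjusted p = 0.00024), and 9.03% of all tested probe sets had a log2 fold change as high. The dimmer one had 60.7 and 59.0 in high glucose, against 31.2 and 33.1 in low glucose, and rose 1.86-fold (0.90 ± 0.26, adjusted p = 0.024). Its low glucose mean of 32.1 lay below the filter signal, so it reached the filter only through its high glucose arrays and is no separate support for the rise. Each probe set separated the groups, and the interval of the dimmer one, 0.28 to 1.51, held the estimate of the brighter one. The call of the dimmer probe set was lost on leaving out high glucose replicate 1 (adjusted p = 0.13), high glucose replicate 2 (0.11) or low glucose replicate 1 (0.058), and without a filter (0.06).

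EIF2AK1, the haem-regulated kinase, did not give one answer. Its brighter probe set had 2014 and 1889 signal units in high glucose, against 2007 and 2210 in low glucose, so that the groups overlapped. The log2 fold change was -0.11 ± 0.07 (95% interval -0.28 to 0.06, adjusted p = 0.23), and it turned to 0.059 after median centring. The dimmer probe set had 208 and 178 in high glucose, against 325 and 304 in low glucose. It fell 1.63-fold (-0.71 ± 0.12, adjusted p = 0.002). Both EIF2AK1 probe sets are of the _s_at type, so the alternative without _x_at and _s_at probe sets held none of this gene.

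EIF2AK2, the double-stranded RNA sensor, showed small differences of either sign. The brightest probe set had 844 and 815 signal units in high glucose, against 788 and 752 in low glucose. These groups did not overlap, but the log2 fold change of 0.11 ± 0.06 did not pass (adjusted p = 0.2). It passed after median centring (0.28, adjusted p = 0.016). The next, of the _x_at type that can match several transcripts, had 286 and 306 in high glucose, against 349 and 401 in low glucose, and fell 1.26-fold (adjusted p = 0.025). That call was lost after median centring (adjusted p = 0.26), without the intensity trend (0.077), and without high glucose replicate 1 or low glucose replicate 2 (0.11 each). The dimmest had 41.2 and 66.1 in high glucose, against 52.6 and 42.7 in low glucose, with overlapping groups (0.14 ± 0.31, adjusted p = 0.73).

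The log2 ratio of EIF2AK3 to EIF2AK4 within an array, from the brightest probe set of each, was -0.61 and -0.83 on the high glucose arrays and 1.68 and 1.71 on the low glucose arrays. The difference was -2.42 log2 units, which restates the fold changes of the 2 transcripts given above and does not give their relative abundance. Against EIF2AK2 and EIF2AK1 the EIF2AK3 ratio differed by -1.74 and -1.53 log2 units, with no overlap of the groups. With 2 arrays against 2, the exact two-sided permutation test gave p = 0.333 for each of the 5 pairs of genes compared in this way, before and after adjustment, which is the smallest p the design allows.

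**Figure D3:**
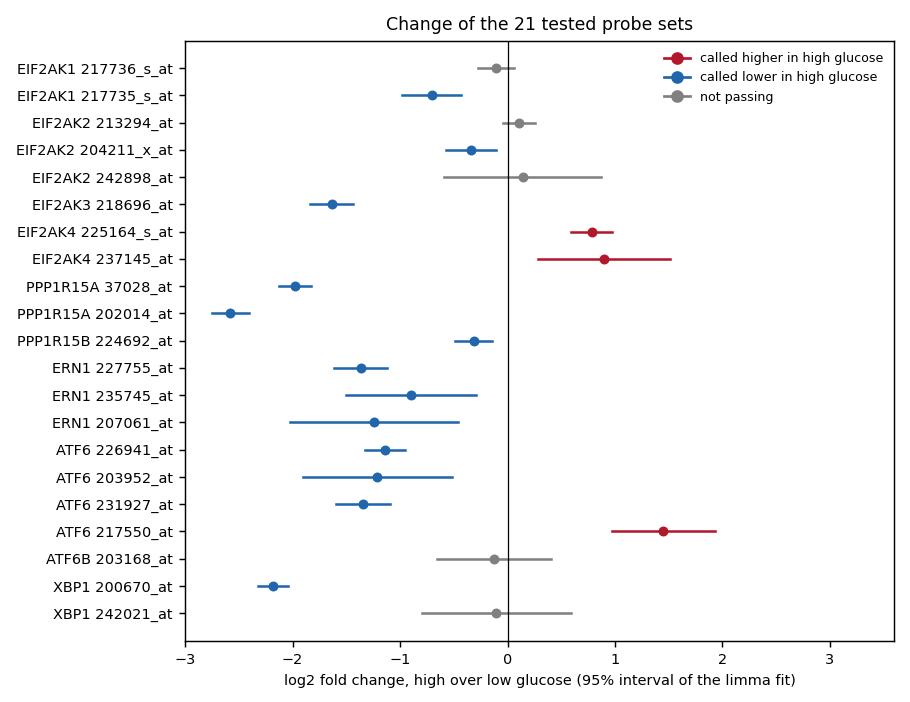
Log2 fold change, high over low glucose, of the 21 tested probe sets (points) with the 95% interval of the limma fit (bars), coloured by call. PPP1R15A and XBP1 lie furthest to the left, at -2.58 and -2.18; the 3 probe sets called higher are both of EIF2AK4 and 1 of ATF6.

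Of the phosphatase adaptors, PPP1R15A fell 3.94-fold to 5.98-fold in high glucose. PPP1R15B fell 1.25-fold, a small change whose call did not hold in every alternative. PPP1R15A, the stress-induced adaptor, had 251 and 239 signal units in its dimmer probe set in high glucose, against 1525 and 1410 in low glucose. It fell 5.98-fold (-2.58 ± 0.07 log2 units, adjusted p = 1.5e-06), the lowest log2 fold change of the 21. Only 0.308% of all tested probe sets had one as low. Its brighter probe set had 488 and 520 in high glucose, against 1943 and 2027 in low glucose, and fell 3.94-fold (-1.98 ± 0.06, adjusted p = 2.6e-06). The 95% intervals of the 2 estimates, -2.75 to -2.41 and -2.13 to -1.83, did not overlap, and the difference between the probe sets was not tested.

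PPP1R15B, the constitutive adaptor, had 676 and 637 signal units in its single probe set in high glucose, against 853 and 782 in low glucose. The groups did not overlap, and the transcript fell 1.25-fold (-0.32 ± 0.07 log2 units, adjusted p = 0.0094). A log2 fold change as low was found in 33.6% of all tested probe sets. The call was lost after median centring (-0.15, adjusted p = 0.17) and without the intensity trend (adjusted p = 0.064). The log2 ratio of PPP1R15A to PPP1R15B within an array was -0.47 and -0.29 in high glucose, against 1.19 and 1.37 in low glucose, a difference of -1.66.

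ERN1, the kinase and nuclease sensor of the ER membrane, was lower in high glucose in its brightest probe set. The brightest had 137 and 131 signal units in high glucose, against 355 and 336 in low glucose. It fell 2.58-fold (-1.37 ± 0.11 log2 units, adjusted p = 7.3e-05). The next had 35.6 and 49.3 in high glucose, against 76.5 and 80.1 in low glucose (-0.90 ± 0.26, adjusted p = 0.023). The dimmest had 23.0 and 23.9 in high glucose, below the filter signal of 32.9, against 44.6 and 69.5 in low glucose (-1.25 ± 0.33, adjusted p = 0.017). This probe set reached the filter only through its low glucose arrays, so its call is no separate support for the fall. The groups did not overlap in any of the 3. The 2 dim probe sets lost their calls when arrays were left out. For the brighter of these this was so without high glucose replicate 1 (adjusted p = 0.11), low glucose replicate 1 (0.052) or low glucose replicate 2 (0.068). For the dimmest it was so without high glucose replicate 1 (0.059), high glucose replicate 2 (0.05) or low glucose replicate 2 (0.1).

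ATF6, the transcription factor anchored in the ER membrane, fell in 3 probe sets and rose in its dimmest. The brightest had 465 and 455 signal units in high glucose, against 1082 and 951 in low glucose, and fell 2.20-fold (-1.14 ± 0.08 log2 units, adjusted p = 4.5e-05). The next to dimmest had 129 and 137 in high glucose, against 345 and 332 in low glucose, and fell 2.55-fold (-1.35 ± 0.11, adjusted p = 7.8e-05). Both separated the groups by far more than the distance between replicates. The second brightest had 307 and 294 in high glucose, against 478 and 1016 in low glucose, so that its low glucose arrays differed from each other by more than 2-fold. Its log2 fold change was -1.21 ± 0.30 (adjusted p = 0.012), -1.76 without low glucose replicate 1 and -0.67 without low glucose replicate 2. It did not pass without the intensity trend (adjusted p = 0.075).

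The dimmest probe set, which the annotation also gives to ATF6, had 133 and 131 signal units in high glucose, against 53.8 and 43.7 in low glucose. It rose 2.73-fold (1.45 ± 0.20 log2 units, adjusted p = 0.001), the largest rise of the 21, and kept its call and direction in all 12 alternatives that could be run for it. The platform annotation gives it no transcript accession, whereas it gives each of the other 3 ATF6 probe sets one. Which part of the ATF6 locus it reads was not analysed here. Of the 10 genes, ATF6 was the only one with probe sets called in both directions.

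ATF6B, the ATF6 homologue, was near the filter or below it in its 3 single-gene probe sets. The brightest had 57.5 and 54.1 signal units in high glucose, against 63.2 and 58.6 in low glucose. The groups did not overlap, but the log2 fold change of -0.12 ± 0.23 did not pass (95% interval -0.66 to 0.41, adjusted p = 0.67) and turned to 0.0065, 0.046 and 0.0092 after quantile normalization, median centring and cyclic loess. A second, of the _s_at type, had 34.9 and 14.2 in high glucose, against 26.9 and 54.9 in low glucose. The dimmest had 32.7 and 22.6 in high glucose, against 4.45 and 18.0 in low glucose. Both lay below the filter and carry no call. The within-array log2 ratio of ATF6 to ATF6B was 3.02 and 3.07 in high glucose, against 4.10 and 4.02 in low glucose, a difference of -1.02.

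XBP1, the factor that ERN1 activates by splicing, gave one of the strongest falls. The brighter probe set had 559 and 530 signal units in high glucose, against 2452 and 2495 in low glucose. It fell 4.54-fold (-2.18 ± 0.06 log2 units, adjusted p = 1.4e-06), and 0.634% of all tested probe sets had a log2 fold change as low. Its promoter window is the one with the ERSE match shown above. The dimmer probe set had 69.1 and 43.2 in high glucose, against 63.8 and 54.0 in low glucose, with overlapping groups (-0.10 ± 0.30, adjusted p = 0.79). The platform annotation gives this dimmer probe set no transcript accession. Its sign turned in 5 alternatives, and its interval of -0.80 to 0.59 excluded the estimate of the brighter one.

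**Figure D4:**
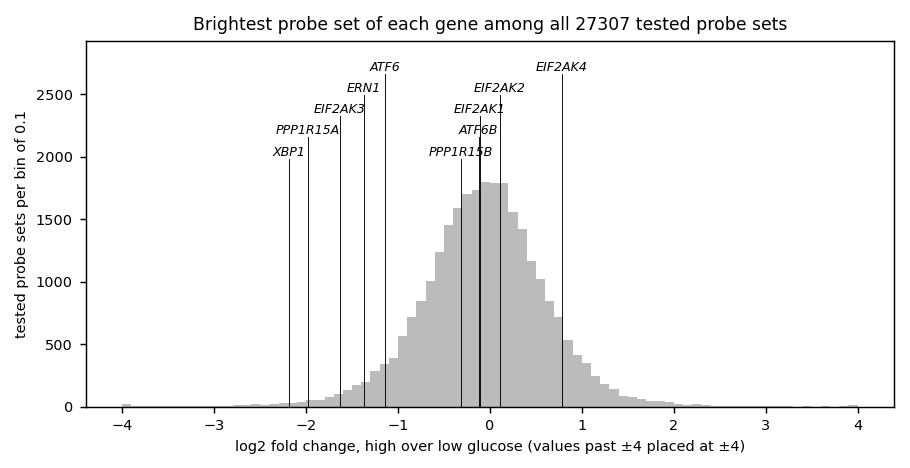
Number of tested probe sets per bin of 0.1 log2 units (grey bars) by log2 fold change, high over low glucose, with the brightest probe set of each of the 10 genes marked. XBP1, PPP1R15A, EIF2AK3, ERN1 and ATF6 lie in the lower tail, EIF2AK4 on the upper side, and PPP1R15B, EIF2AK1, ATF6B and EIF2AK2 within 0.4 of 0.

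Genes whose 4 arrays ran most like those of the largest rise and the largest fall were sought by the Euclidean distance between log2 signals, each centred on its mean over the 4 arrays. Nearest to the dimmer PPP1R15A probe set were BEX2 at a distance of 0.07, AKNA at 0.09 and HYOU1, an ER chaperone, at 0.11. BEX2 had 592 and 548 signal units in high glucose, against 3538 and 3444 in low glucose. Nearest to the dimmest ATF6 probe set were TRMT6 at 0.09, DPH6 at 0.13 and ESF1 at 0.14. With 4 arrays in 2 groups, such a distance mostly reflects an equal difference between the groups.

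Genes that act directly on eIF2 or on the kinases went both ways. For each list gene the brightest tested probe set was used, and over all 12242 genes 23.8% were called higher and 32.6% lower in this way, with a median of -0.10 log2 units. Of the 8 subunits of eIF2 and its exchange factor eIF2B, 4 rose and 2 fell (median 0.13). EIF2S1, which is eIF2alpha itself, rose 2.65-fold in its brightest probe set (1.41 log2 units, adjusted p = 7e-06). That probe set had 2119 and 2028 signal units in high glucose, against 791 and 773 in low glucose. The 2 further tested probe sets of EIF2S1 were also called higher, but by less, at 0.32 and 0.73 log2 units. EIF2B3 and EIF2B1 rose 1.46-fold and 1.34-fold, and EIF2S3 fell 1.38-fold. The count of falls was 1 without either low glucose array.

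Of 12 measured activators and inhibitors of the kinases, 4 rose and 3 fell (median -0.06). OMA1, the mitochondrial protease that starts signalling to EIF2AK1, had 362 and 389 signal units in high glucose, against 142 and 176 in low glucose, and rose 2.38-fold. DELE1, the protein that OMA1 cuts and that activates EIF2AK1, had 275 and 263 in high glucose, against 588 and 563 in low glucose, and fell 2.14-fold. DNAJC3, an inhibitor of EIF2AK3 and EIF2AK2, fell 1.93-fold in its brightest probe set, and TARBP2, an inhibitor of EIF2AK2, rose 1.24-fold. A further probe set of each of the last 2 was called the opposite way, at 1.18 log2 units for DNAJC3 and -0.70 for TARBP2. Among the catalytic subunits that PPP1R15A and PPP1R15B recruit, PPP1CA and PPP1CC fell 1.21-fold and 1.16-fold and PPP1CB rose 1.21-fold. These small changes did not hold in every alternative: the count of falls was 0 without either low glucose array and 1 without high glucose replicate 1, and the rise was lost without low glucose replicate 2.

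Partners of the ER sensors were lower in 10 of 17 measured genes and higher in 2 (median -0.24). After median centring 6 were lower. HSPA5, the chaperone BiP that binds all 3 kinds of sensor, had 4498 and 4850 signal units in high glucose, against 11171 and 11532 in low glucose, and fell 2.43-fold. SEL1L, of the ER degradation complex, fell 3.78-fold, PDIA6, a disulphide isomerase, 1.73-fold, and MBTPS1, the site-1 protease that cuts ATF6, 1.56-fold. The 2 genes called higher were BAX and BAK1, named here after their values were seen, at 0.30 and 0.39 log2 units. The count of genes called higher was 1 without high glucose replicate 1 or low glucose replicate 1 and 0 without high glucose replicate 2. The 3 measured relatives of ATF6 among ER-anchored factors, CREB3, CREB3L2 and CREB3L4, fell 1.39-fold, 1.34-fold and 1.74-fold.

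Targets downstream of the 3 arms were lower in high glucose almost throughout. The lists share genes with each other, and XBP1 is itself in the ATF6 list. Of 11 outputs of the integrated stress response, 11 fell (median -1.72), with the transcription factors DDIT3 (CHOP) and CEBPB lower by 23.0-fold and 5.95-fold, the pseudokinase TRIB3 by 14.5-fold and ASNS, asparagine synthetase, by 3.29-fold. DDIT3 had 151 and 167 signal units in high glucose, against 3802 and 3520 in low glucose (adjusted p = 6.6e-07). Among the 11, CHAC1 had 19.6 and 21.5 in high glucose, against 255 and 228 in low glucose. NUPR1 had 19.1 and 35.8 in high glucose, against 1127 and 1051 in low glucose. CHAC1 and NUPR1, named here after their values were seen, reached the filter only through their low glucose arrays. Their calls are therefore no separate support for the falls. ATF4, named here after its values were seen, had 4165 and 4830 signal units in high glucose, against 9778 and 10035 in low glucose, and fell 2.21-fold. Of 12 targets of XBP1, 11 fell (median -1.13), among them HYOU1 (5.68-fold), DNAJB9 (5.33-fold), SDF2L1 (2.68-fold) and SEC61A1 (2.62-fold). The one that did not pass was SRPRB, named here after its values were seen, at 0.002 log2 units in its brightest probe set. Of its 2 further tested probe sets, 1 was called lower, at -0.41 log2 units (adjusted p = 0.0027). The other, at -0.25 log2 units, did not pass. Of 9 targets of ATF6, 9 fell (median -1.53), with HERPUD1 lower by 6.48-fold and MANF by 3.35-fold.

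Of 7 measured transcripts that ERN1 itself is known to cut, 3 fell and 0 rose (median -0.38). COL6A1, HGSNAT and PDK2 fell 1.87-fold, 1.68-fold and 1.31-fold. SCARA3 had 154 and 137 signal units in high glucose, against 170 and 212 in low glucose, and did not pass (adjusted p = 0.072). BLOC1S1, a transcript often used to follow this activity and named here after its values were seen, had 1070 and 1210 signal units in high glucose, against 1221 and 1340 in low glucose, and did not pass (-0.17 ± 0.08 log2 units, adjusted p = 0.12). Of 12 measured interferon-induced genes, a class to which EIF2AK2 belongs, 7 fell and 1 rose (median -0.53). IRF9, IRF1, IRF7 and IFITM3 were lower by 2.78-fold, 2.61-fold, 2.09-fold and 1.52-fold. MX1, a fall named here after its values were seen, had 35.7 and 19.0 signal units in high glucose, against 51.1 and 58.2 in low glucose. IFIT1, the rise, had 52.2 and 72.2 in high glucose, against 28.9 and 35.3 in low glucose. Each reached the filter only through the group where it was high, so neither call is separate support for a change. The count of falls was 4 without low glucose replicate 2, and the rise, in IFIT1 (named here after its values were seen), was lost without high glucose replicate 2 or low glucose replicate 1.

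**Figure D5:**
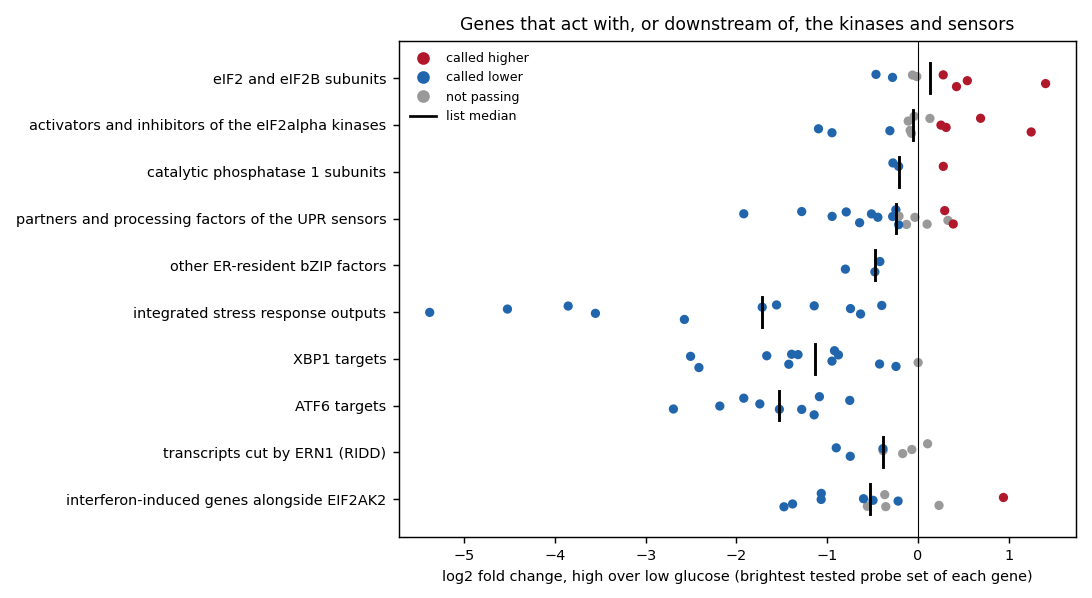
Log2 fold change, high over low glucose, of the brightest tested probe set of each measured gene (points, coloured by call) in 10 lists of genes that act with or downstream of the kinases and sensors, with the median of each list (black bar). The outputs of the integrated stress response and the targets of XBP1 and ATF6 lie to the left, with medians of -1.72, -1.13 and -1.53, while subunits of eIF2 and eIF2B spread around 0.13.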

How the data were processed

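Biotin-labelled RNA from 2 high glucose and 2 low glucose samples of HEK293 cells was hybridised to single-colour arrays. The authors deposited linear signal intensities, 1 per probe set and array. GCOS, the Affymetrix software, is named without a version, per the submitters' processing notes. Background and scaling settings were not given in the sources used here. The deposited values have a 2% trimmed mean of 200.02 on all 4 arrays, so changes shared by most transcripts cannot be seen. No counting error applies, and the number of arrays limits the precision.

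Probe sets were named through GEO's platform annotation, with symbols updated by gene identifier from RefSeq (GRCh38.p14). Signals were log2-transformed with no pseudocount. The 62 control probe sets were left out, and 27307 of 54613 others reached the filter, the median of the mean log2 signals. The groups were compared (high minus low glucose) by limma 3.58.1 (lmFit, eBayes with an intensity trend; R 4.3.3), two-sided, with Benjamini-Hochberg adjustment over the 27307.

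Members and gene lists were chosen with earlier results of these data known. The text names every probe set of the 10 genes, up to 4 genes per list by smallest p, and the 3 genes nearest to the largest rise and fall. Lists were described by counts and medians, without set tests. TRAF2, SYVN1, PDIA5, PRKRIP1, CREB3L1, CREB3L3, PDGFRB, STAT2 and OAS1 had no tested single-gene probe set and were not analysed here. Alternatives covered normalization, filter, pseudocount, trend, replicate block, arrays left out, a fit over genes and probe set types.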

Additional observations from a re-analysis of the deposited data

Results flagged for a closer look

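Control probe sets outside the comparison differed by group. The poly-A spikes were higher in high glucose by a median of 1.94 log2 units over 24 probe sets, with median signals of 151 and 139 on the high glucose arrays, against 38.1 and 44.0 on the low glucose arrays. Over 6 ribosomal RNA probe sets the median difference was 1.73 log2 units, with 5 of 6 higher on both high glucose arrays. The 18 hybridisation controls had a median difference of -0.34 log2 units, with 0 of 18 higher on both high glucose arrays. Their median signals were 485 and 874 on the high glucose arrays, against 867 and 886 on the low glucose arrays, so that high glucose replicate 1 stood apart. The spikes and ribosomal RNA stand out because neither is part of the gene comparison and both exceed the low glucose level.

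One further probe set reads TNXB and ATF6B together and was left out by the rule of 1 gene per probe set. It had 38.8 and 50.7 signal units in high glucose, against 20.0 and 38.7 in low glucose, a difference of 0.67 ± 0.40 log2 units that did not pass (adjusted p = 0.19). It was noted because both high glucose arrays lay above both low glucose arrays, by a margin of under 1 signal unit.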

How the results depend on the processing

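Over the 21 tested probe sets, 272 alternative values were computed, of which 243 kept the direction and the side of the threshold, 17 lost a call, 1 gained one and 11 changed sign. All 11 sign changes were in probe sets that did not pass. The brighter EIF2AK1 probe set was at 0.059 after median centring. Quantile normalization, median centring and cyclic loess gave 0.0065, 0.046 and 0.0092 for the brightest ATF6B probe set and 0.033, 0.067 and 0.031 for the dimmer XBP1 one. Leaving out each array in turn gave -0.44 to 0.24 for that XBP1 probe set and -0.20 to 0.48 for the dimmest EIF2AK2 one. The cause was not tested. Both PPP1R15A probe sets, the brighter ones of XBP1, EIF2AK3 and EIF2AK4, the brightest of ERN1, the dimmer of EIF2AK1, and those of ATF6 other than the second brightest kept their calls in every alternative run for them.

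Counts of member probe sets called lower and higher were 13 and 3. Leaving out each array in turn gave 10 to 12 lower and 2 to 3 higher. The stricter filter, which tested 14 of them, gave 1 higher, and the fit over genes, which tested 10, gave 6 lower and 1 higher. Over all features the fit over genes gave 2970 higher and 4079 lower, and leaving out _x_at and _s_at probe sets gave 3618 and 4414, both with fewer features tested, against 6318 and 7441. Median centring moved the median log2 fold change of all tested probe sets from -0.06 to 0.11 and the share of higher calls from 45.9% to 63.0%, so small changes have no settled direction. With the replicate number as a block, 13 member probe sets were called lower and 3 higher, and no member's call changed. The labels give the numbers no shared batch, and deviations of same-numbered arrays correlated at 0.0077 over 27307 probe sets, which are not independent.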
